A study of Danio rerio with 26 samples.

Results

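The accessible sites of chromosome 7 are the 1624 consensus ATAC-seq peaks that the deposited list places on this chromosome of the zebrafish genome build Zv10. They are 6.25% of the 25975 peaks in the list and 6.36% of the 25521 peaks on the 25 assembled chromosomes. The members were taken by chromosome name alone. Chromosome 7 and 3 of its windows of 100 kb were picked because earlier work on the same list had shown many peaks there, so numbers of peaks are given as a description and no test was made of them. The 3 windows, called the first, the second and the third dense window in order, begin at 6200001, 22500001 and 73600001.

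ATAC-seq was done on cells of deyolked whole embryos, in which the Tn5 transposase cuts and tags open DNA. The list was built from 17 wild-type libraries of 7 stages, with 2 libraries each at 256-cell, sphere, shield and 80% epiboly and 3 each at high, oblong and dome. The other 9 libraries, all at oblong, were 2 each from pou5f3-KO, sox19b-KO and nanog-KO embryos (maternal-zygotic mutants) and from embryos given α-amanitin, and 1 from naked genomic DNA. Apart from naked DNA, which was the control for peak calling, these libraries did not enter the list. Each peak has a chromosome, a start and an end, so no peak has a height, a stage or a spread between replicates, and the sequencing depth behind it is unknown.

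Accessible sites are stretches where nucleosomes are absent or loosely held and where transcription factors and the transcription machinery can reach the DNA. In early zebrafish embryos, many of them are promoters and enhancers that open around the time when the embryo's own genome is switched on. Such elements often lie in groups, since promoters of neighbouring genes and several enhancers of a gene can sit close together. No peak was assigned to a gene here.

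Chromosome 7 had the largest number of peaks of any chromosome, ahead of chromosome 5 with 1533. Its peaks reached from 129770 to 74080052, the second longest span after chromosome 4. They covered 581 kb, or 0.786% of that span, the largest share of the 25 chromosomes, with chromosome 3 next at 0.771%. The stretches from 6200001 to 6400000 and from 73500001 to 73700000 held 6.74% of these covered bases in 0.541% of the span. Without both stretches 541.9 kb were covered, a smaller share than that of chromosome 3 with all its peaks. Chromosome 7 made up 5.52% of the summed span of all chromosomes, against its 6.36% of the peaks.

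In full bins of 1 Mb counted from the first peak, chromosome 7 held 21.5 ± 9.56 peaks per Mb (SD, n = 73 bins). The 24 other chromosomes together held 18.7 ± 9.50 peaks per Mb (SD, n = 1253 bins). By this mean chromosome 7 came behind chromosomes 3 (22.2) and 23 (21.6). These full bins end before the third dense window and so leave out its peaks. Over its whole span chromosome 7 held 21.96 peaks per Mb, behind chromosome 3 (22.37) and ahead of chromosome 23 (21.67). In the full bins, chromosome 7 stood first in the share of crowded bins, since 17 of its 73 bins (23.3%) had at least 30 peaks. Among the others, 11.3% of the bins had that many, and chromosome 3 came nearest with 19.4%. At the sparse end, 9.59% of the bins of chromosome 7 and 12.4% of the others had at most 8 peaks.

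**Figure D1:**
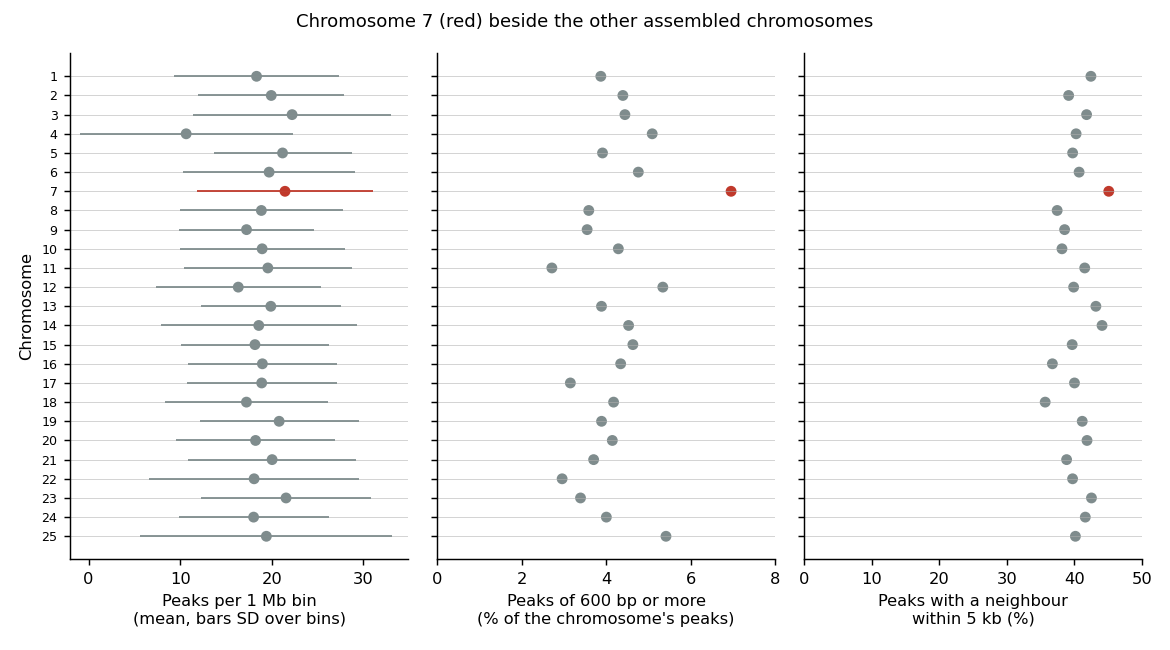
Each row is 1 of the 25 assembled chromosomes, with chromosome 7 in red. The left panel shows the mean number of peaks per 1 Mb bin with bars for the SD over bins, the middle panel the share of peaks at least 600 bp wide, and the right panel the share of peaks with a neighbour within 5 kb. Chromosome 7 lies within the others' range in the left panel, at 21.5, and highest in the middle and right panels, at 6.96% and 45.1%.

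Along the chromosome, the number of peaks went through long stretches of high and low density. The bins described next are counted from the start of the chromosome, and the bounds of the stretches were set after seeing them. From 2 to 5 Mb, each of 3 bins held 6 peaks. From 5 to 9 Mb, the bins held 33.5 ± 6.95 peaks per Mb (SD, n = 4), with 27 in the lowest. The next 6 bins, from 9 to 15 Mb, were even, with 18 to 21 peaks each. A sparse, a crowded and a middling block thus lay side by side within the first 15 Mb.

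From 15 to 43 Mb lay a broad rich stretch, with 761 peaks (46.9%) in 28 bins and 27.2 ± 6.55 peaks per Mb (SD). Its lowest bin held 16 peaks and its highest 47. From 43 to 56 Mb the mean was 20.1 ± 7.30 (SD, n = 13 bins). From 56 to 67 Mb it was 10.3 ± 5.02 (SD, n = 11 bins), with no bin above 20 peaks. From 67 to 73 Mb it was again 19.5 ± 8.96 (SD, n = 6 bins). The last full bin, from 73 to 74 Mb, held 65 peaks, more than any other bin of the chromosome.

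The 5 densest full bins began at 73 Mb (65 peaks), 35 Mb (47), 6 Mb (43), 21 Mb (37) and 33 Mb (36). The bins from 6 and 73 Mb had 18 and 11 peaks of at least 600 bp, and the remaining 3 had 2 to 4. Median widths did not divide the bins in this way, at 466 and 328 bp from 6 and 73 Mb. The bins from 35, 21 and 33 Mb had medians of 305, 312 and 388.5 bp. The bins from 6 and 73 Mb had 25.6 and 28.8 kb under peaks, whereas that from 35 Mb had 16.2 kb in spite of its 47 peaks. The 5 sparsest bins began at 66 Mb (4 peaks), 62 Mb (5), 63 Mb (5), 2 Mb (6) and 3 Mb (6), and the bin from 4 Mb was level with the last pair. Each of these 5 had 6 or 7 windows of 100 kb without any peak.

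**Figure D2:**
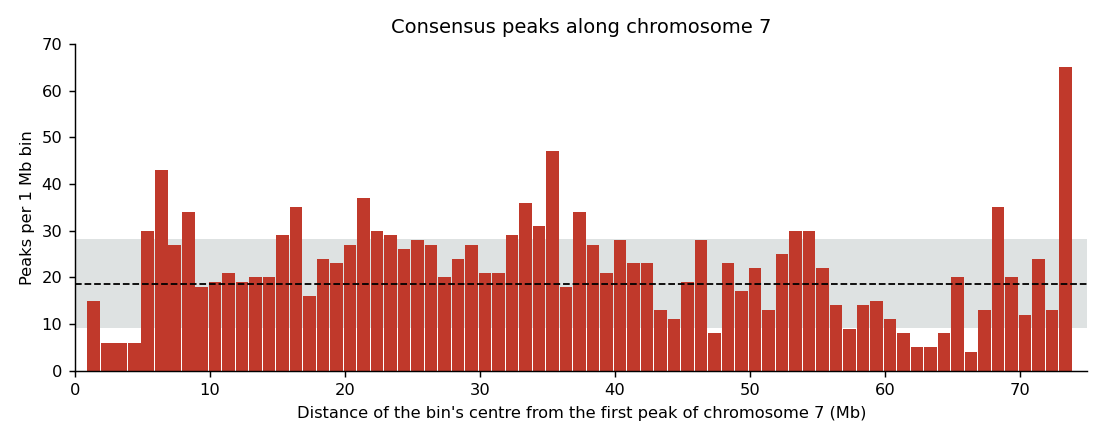
Bars give the number of consensus peaks in each full 1 Mb bin of chromosome 7 against the distance of the bin's centre from the first peak, in Mb. The dashed line and grey band are the mean and 1 SD of the bins of the 24 other chromosomes (18.7 ± 9.50). The bars use bins counted from the start of the chromosome, but the line and band use bins counted from each chromosome's first peak. The bars fall to 4 to 6 peaks in the sparse stretches early and late on the chromosome and reach 65 at the far end.

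Neighbouring 1 Mb bins of chromosome 7 resembled each other to some extent. For this the bins were counted from the first peak, which leaves out the third dense window. Numbers of peaks had a correlation of 0.42 across neighbouring bins, against 0.60 on chromosome 4, which was highest, and a median of 0.14 over the 24 others. Neighbouring bins come from 1 list and are not independent, so no test is given. A stretch of 5 Mb, moved in steps of 100 kb from the first peak, held between 32 and 172 peaks on chromosome 7. The lowest began at 59429770 and the highest at 32429770. The ratio of these extremes was 5.38, against 75 on chromosome 4 and a median of 3.01 over the others. Density also leaned to the first side, since 912 peaks (56.2%) lay before the middle of the span, at 37.1 Mb. Chromosomes 4 (79.5%), 8 (57.6%) and 22 (56.3%) leaned further to that side, and chromosome 10 had the lowest share (40.5%).

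In windows of 100 kb, counted from the start of the chromosome, chromosome 7 held 2.19 peaks on average and 1 by the median, in 740 windows. No peak lay in 186 of them, or 25.1% (95% exact binomial interval 22.0 to 28.4, which treats windows as independent and covers counting error only). The corresponding share was 30.9% on the 24 other chromosomes (30.1 to 31.7), and chromosomes 5 (22.7%) and 23 (24.6%) lay below chromosome 7. Since chromosome 7 was picked for its many peaks, these intervals do not test the difference. With all windows shifted by 50 kb, the share on chromosome 7 was 26.99% and 6 chromosomes lay below it. Windows with 5 to 9 peaks made up 12.7% on chromosome 7 and 9.48% elsewhere. Windows with at least 10 peaks numbered 11 on chromosome 7, of 157 on all chromosomes, and made up 1.49% of its windows against 1.15% elsewhere. By that share chromosome 7 ranked 7 of 25, with chromosome 22 highest at 2.04%. At least 15 peaks were found in 3 windows of chromosome 7, those that had been picked, in 5 of chromosome 3 and in 4 of chromosome 25.

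The first and the third dense window held 19 peaks each, and only 2 of all 13409 windows, both on chromosome 25, held more. The windows from 23500001 on chromosome 3 and from 28700001 on chromosome 4 also held 19. The second dense window held 17. Just below came the windows that begin at 21400001 with 14 peaks, at 6300001 with 13 and at 35500001 with 12. Those from 23800001 and 48300001 had 11 peaks each, and those from 42100001 and 54400001 had 10. The window with 13 directly follows the first dense window, so both belong to 1 crowded place.

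Counting the bases under peaks instead of the peaks set the 3 windows apart. A window of chromosome 7 had a median of 464 bp under peaks, and a window of all chromosomes had a median of 374 bp. The first dense window had 12313 bp, the second highest on the assembled chromosomes, and the third had 11019 bp, the fourth highest. The window after the first dense window had 9977 bp, the sixth highest, although 29 windows had more peaks. The second dense window had 5823 bp and ranked 20 by covered bases, against 9 by number of peaks. Of the 6 windows with most covered bases on the assembled chromosomes, 3 were on chromosome 7 and 3 on chromosome 25.

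The first dense window, from 6200001 to 6300000, came straight after 100 kb without a peak. Its peaks lay in 2 clusters, a cluster being a group in which no gap exceeds 10 kb. The opening cluster had 11 peaks from 6204751 to 6232845, over 28.1 kb. Then followed 40.3 kb without a peak, 43.6% of the length between the window's outer peaks. The next cluster had 13 peaks from 6273160 to 6310585 and crossed into the following window. The third cluster, 8 peaks from 6321908 to 6334783, came after a gap of 11.3 kb.

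In the opening cluster, after a lone peak of 668 bp from 6204751 to 6205418, the other 10 peaks could be read as 5 pairs, an order noticed after seeing the data. The gaps inside the pairs were 263, 532, 1010, 1310 and 702 bp. The gaps before the pairs were 4024, 4007, 2519, 3966 and 2696 bp, so each of these was longer than any gap inside a pair. The pair from 6209443 had peaks of 1088 and 291 bp, that from 6215092 had 405 and 880 bp, and that from 6219428 had 370 and 1536 bp. The later pairs had 484 and 620 bp, and 359 and 365 bp. The wider member came first in the pair from 6209443 and second in the others.

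The next cluster was less regular. It opened with peaks of 744 and 435 bp, 6100 bp apart, and 8860 bp further on came a tight run of 6 peaks from 6289299 to 6297203 with gaps of at most 2 kb. Peaks covered 51.5% of that run. Its widest peak, from 6292844 to 6294575, measured 1732 bp and stood among peaks of 653, 224, 466, 611 and 382 bp. The third cluster had the densest cover of all 104 clusters of at least 8 peaks on the assembled chromosomes. Of its 12.9 kb, 54.7% lay under peaks. It held no peak narrower than 552 bp. In it lay the widest peak of the chromosome, from 6329867 to 6331918, at 2052 bp.

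The second dense window, from 22500001 to 22600000, was crowded but had no such wide peaks. Its 17 peaks had a median width of 298 bp, with quartiles of 272 and 368 bp, and the widest, from 22524628 to 22525243, was 616 bp. Its gaps were also longer, at a median of 3.65 kb against 1.29 kb in the first dense window and 0.609 kb in the third. A cluster of 13 peaks began just before the window and took up 39.3 kb, from 22499582 to 22538899, with 12.4% under peaks. After 13.7 kb without a peak came 4 peaks from 22552604 to 22560290, then 1 at 22582513, and then none for 103 kb.

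The third dense window, from 73600001 to 73700000, had its peaks packed into 53.3 kb at its start. Its first cluster of 9 peaks began before the window, at 73589795, and ended at 73604959. This cluster had a median width of 744 bp, the highest of the 104 clusters, and opened with peaks of 1258, 702 and 1597 bp. The next cluster had 14 peaks from 73622226 to 73639115, 17.3 kb further on, with a median width of 518 bp. Of its peaks, 11 formed a run from 73627912 to 73639115 whose gaps were all at most 2 kb, and 51.3% of this run lay under peaks. Wide peaks of 1169 and 996 bp sat in the run beside narrow ones of 209, 245 and 200 bp. The last peak of the window, 318 bp wide, stood apart at 73653035, and only 1 peak lay in the following window.

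**Figure D3:**
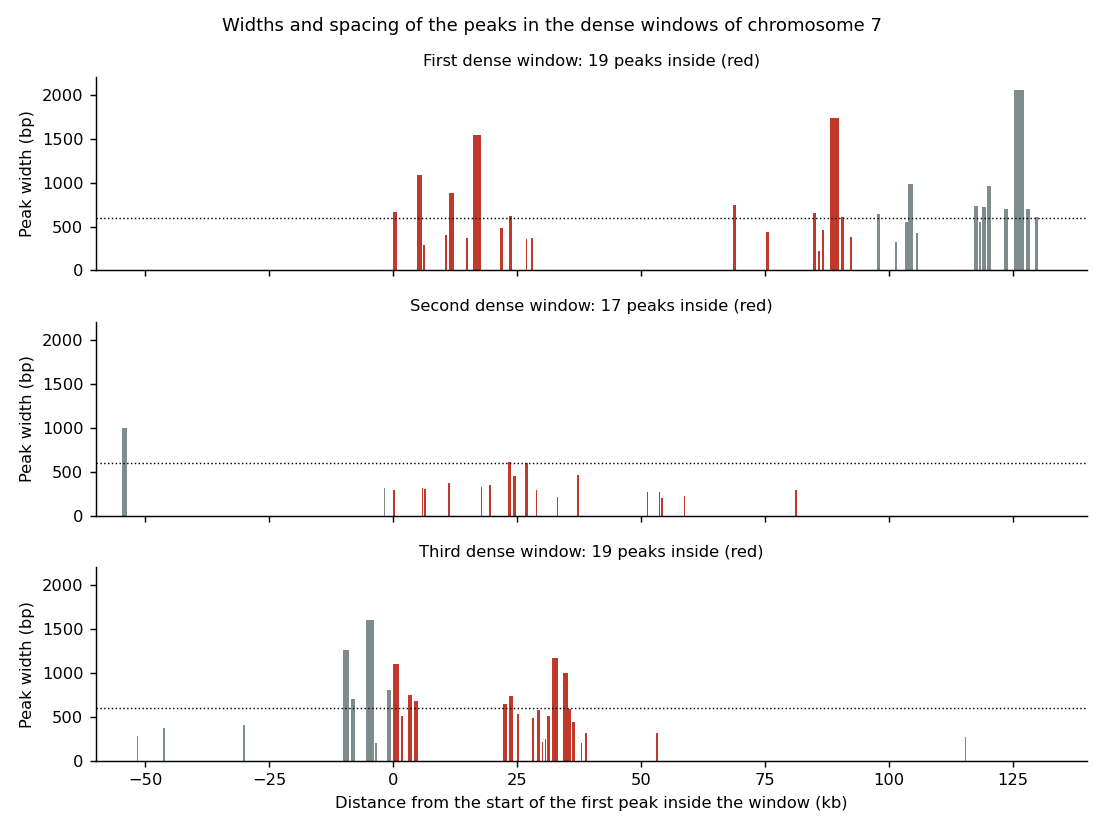
Each bar is 1 peak, placed by its distance in kb from the first peak inside the window, as wide as the peak on that axis (with a minimum drawn width) and as high as its width in bp. Red peaks lie inside the first, the second and the third dense window (top to bottom), grey ones just outside, and the dotted line marks 600 bp. Peaks of at least 600 bp number 9 inside the top window, 1 inside the middle one and 7 inside the bottom one.

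The close packing bore on how many peaks were counted in the third dense window. Of its 18 gaps, 8 were at most 500 bp, against 3 of 18 in the first and 3 of 16 in the second. When neighbours across gaps of up to 500 bp were joined, the third window went from 19 to 11 peaks. The first and second windows then held 16 and 14. Whether close neighbours are separate sites or pieces of a longer open stretch was not tested.

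The borders of the windows also divided clusters. Placed where it held most, a window of 100 kb had 26 peaks around the third dense window, 22 around the first and 18 around the second. The crowding was then highest at the third, while the fixed windows gave 19 peaks for both the first and the third.

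Over the whole chromosome, the typical peak was of ordinary width. The median was 317 bp (95% interval from binomial order statistics 312 to 321, which treats peaks as independent) with quartiles of 263 and 398 bp. The median of the peaks on the other chromosomes was 315 bp. The upper tail was heavier. On chromosome 7, 113 peaks (6.96%) were at least 600 bp wide, against 4.08% on the others, where chromosome 25 came nearest at 5.42%. Peaks over 1 kb numbered 16 on chromosome 7, or 19.5% of the 82 on all 25 chromosomes, and chromosomes 4 and 19 followed with 7 each. As a share of a chromosome's peaks, chromosome 7 had 0.985%, little more than chromosome 4 (0.848%), and the pooled others had 0.276%. At the narrow end, 62 peaks (3.82%) had exactly 200 bp, the smallest width in the list, against 3.26% on the others. Chromosomes 4 (4.36%), 8 (4.07%) and 17 (4.04%) had larger shares.

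Many of the wide peaks lay in a pair of places. The stretch from 6200001 to 6400000 and that from 73500001 to 73700000 held 60 peaks, 3.69% of the chromosome's peaks, and among them 29 of its 113 peaks of at least 600 bp. They also held 8 of the 16 peaks over 1 kb. The median width was 616 bp in the first stretch and 523 bp in the last, and 315 bp in the rest of the chromosome. Without both stretches, 5.37% of the peaks of chromosome 7 were at least 600 bp wide. That was just below chromosome 25 and above the 4.08% of the pooled others, from which no peaks were taken out. These stretches were chosen after their widths had been seen.

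The 10 widest peaks were divided between those places and other sites along the chromosome. The widest, at 2052 bp, and the next, at 1732 bp, were in the first stretch, and only 2 peaks on the assembled chromosomes were wider than the former. The peak from 73594502 to 73596098 followed with 1597 bp, then that from 6220808 to 6222343 with 1536 bp and that from 73589795 to 73591052 with 1258 bp. These 5 had 10 to 25 other peaks within 50 kb.

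The next pair had fewer peaks within 50 kb, though not in wider surroundings. The peak from 48310415 to 48311596 had 1182 bp with 3 other peaks within 50 kb, in a 100 kb window of 11. That from 33407538 to 33408709 had 1172 bp with 4, in a 1 Mb bin of 36. The eighth, from 73632032 to 73633200, was again in the third dense window (1169 bp). The ninth, from 11816338 to 11817468, had 1131 bp and 6 other peaks within 50 kb. The tenth, from 5846362 to 5847482, had 1121 bp and belonged to a cluster of 8 peaks from 5835035 to 5856404, in which a further pair measured 1100 and 1096 bp. That cluster lies before the first dense window, outside both wide stretches.

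Width went up with crowding. On chromosome 7, peaks that were alone in their 100 kb window had a median width of 299 bp, those in windows of 2 to 4 peaks 309 bp, in windows of 5 to 9 peaks 326 bp, and in windows of 10 or more 379.5 bp. The share of at least 600 bp was 2.59%, 3.46%, 8.63% and 22.6% in the same order. On the other chromosomes the medians were 304, 311, 325 and 345 bp and the shares 2.27%, 3.25%, 5.26% and 7.80%. Without both wide stretches, the most crowded windows of chromosome 7 had a median of 329 bp and 8.42% wide peaks, close to the others. Windows of 5 to 9 peaks then had 8.08% wide peaks, still above the 5.26% of the others.

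Peaks of chromosome 7 lay close to one another. Their gaps had a median of 17.4 kb, the smallest of the 25 chromosomes, with chromosome 3 next at 17.9 kb. The quartiles were 3.43 and 57.8 kb. On the pooled others the median was 21.7 kb. A neighbour within 5 kb, from midpoint to midpoint, was found for 732 peaks, or 45.1% (95% exact binomial interval 42.6 to 47.5, which treats peaks as independent). The pooled others had 40.2% (39.6 to 40.9), and chromosome 14 came nearest with 44.1%. Close neighbours count each other, so these intervals can be too narrow. Chromosome 7 was also picked for its many peaks, so they do not test the difference. Without the 3 dense windows, the share on chromosome 7 was 43.3%, below that of chromosome 14 with all its peaks. At the other extreme, 41 peaks (2.52%) had no neighbour within 100 kb, against 3.85% on the others. Chromosomes 23 (1.60%), 10 (2.26%) and 3 (2.51%) had smaller shares.

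By size of gap, 100 gaps (6.16%) on chromosome 7 were at most 500 bp, against 4.87% elsewhere and 6.42% on chromosome 20. Gaps of 500 bp to 2 kb made up 11.3% against 9.33%, and those of 2 to 10 kb 22.49% against 21.4%. The range from 10 to 100 kb was in turn less frequent, at 46.2% against 48.9%. Of the 100 shortest gaps, 17 lay in the wide stretches and 3 in the second dense window, so most of the closest neighbours were elsewhere along the chromosome. The wide stretches held 3.69% of the peaks and 0.541% of the span, so their share of these gaps was larger than either.

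Clusters of at least 8 peaks numbered 15 on chromosome 7, or 14.4% of the 104 on all chromosomes, and chromosome 3 followed with 9. They held 145 peaks, 8.93% of the chromosome's peaks, below the 13.1% of chromosome 25. Of the 9 clusters on the assembled chromosomes with a median width of at least 500 bp, 5 were on chromosome 7. They were those from 6273160 and 6321908, the pair at the third dense window and the cluster from 5835035. The other 10 had medians of 266 to 484 bp. They included 10 peaks from 35564151 to 35597979, 9 from 42108952 to 42131332, 9 from 54331558 to 54349733 and 9 from 68201191 to 68233341.

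Peak-free stretches took up an ordinary share of the chromosome. There were 40 gaps over 250 kb, which together took up 14.9 Mb, or 20.1% of the span. That share ranked 19 of 25 from the highest, and the median of the others was 22.3%. Over 500 kb there were 6 gaps. The longest, from 2617219 to 3447896, measured 831 kb, and 20 gaps on the assembled chromosomes were longer. It lay in the sparse stretch near the start, with 6 peaks in the 500 kb before it and 5 in the 500 kb after.

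The next longest gaps were from 57796813 to 58427271 (630.5 kb), from 66470248 to 67093039 (623 kb), from 1653721 to 2273963 (620.2 kb) and from 56807924 to 57335165 (527 kb). All 5 lay in the sparse stretches from 2 to 5 Mb and from 56 to 67 Mb or across their edges. Wholly between 56 and 67 Mb there were 13 of the 40 gaps over 250 kb and between 1 and 5.2 Mb there were 6, whereas the 28 bins from 15 to 43 Mb had 3.

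The stretches had been bounded by their numbers of peaks, so long gaps and empty windows describe the same peaks again and are no separate evidence. In windows of 100 kb, 63.3% were empty from 2 to 5 Mb and 52.7% from 56 to 67 Mb, against 11.4% from 15 to 43 Mb. Empty windows formed 114 runs over the chromosome, of which 75 were a single window and 18 were 3 windows or longer. The longest run was 7 windows, from 2700001 to 3400000. The peaks that did lie in the sparse stretches had median widths of 317 bp from 2 to 5 Mb and 302 bp from 56 to 67 Mb, beside 315 bp from 15 to 43 Mb.

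**Figure D4:**
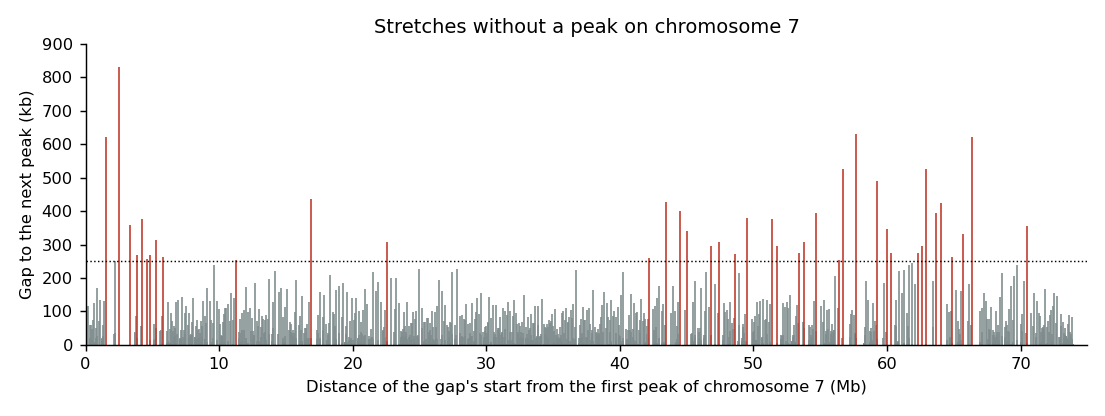
Each line is a gap between neighbouring peaks of chromosome 7, placed by the distance of its start from the first peak in Mb, with its length in kb as height. Gaps over 250 kb, above the dotted line, are red and number 40. They gather near the start and in the later part of the chromosome, and 3 stand between 15 and 43 Mb.

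The ends of chromosome 7 differed from each other. The first 1 Mb, counted from the first peak, held 20 peaks, and the last 1 Mb, counted back from the last peak, held 63, which is 3.15 times as many. The peaks that set the windows are included. The last 1 Mb had the fourth largest number of the 50 chromosome ends and the largest of the 25 far ends, followed by chromosome 6 with 57. The 48 ends of the other chromosomes held 38.1 ± 12.3 peaks (SD). The first 1 Mb of chromosome 7 lay below that range of 1 SD and the last 1 Mb above it. A low end was not particular to chromosome 7, as 4 other chromosomes had an end with under 21 peaks. The lowest was the first end of chromosome 9, with 14.

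The surplus of 43 peaks at the far end was larger than on any other chromosome, where the next was 25 on chromosome 24. Without the dense windows it was 24, below that of chromosome 24 with all its peaks. In the opposite direction, chromosome 4 had 66 peaks at its first end and 16 at its last, and chromosome 25 had 64 and 25. The median difference of the others, whatever its direction, was 11 peaks. Among them, 12 had more peaks at the last end, 11 at the first end and 1 had equal numbers.

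**Figure D5:**
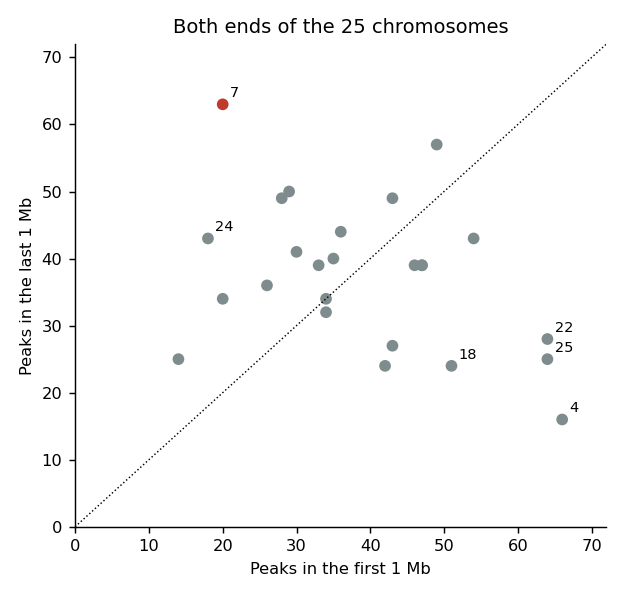
Each point is a chromosome, with the number of peaks in its first 1 Mb on the x axis and in its last 1 Mb on the y axis, and the dotted line marks equal numbers. Chromosomes whose ends differ by at least 25 peaks are named. Chromosome 7 (red), at 20 and 63, lies farthest above the line, and chromosome 4, at 66 and 16, farthest below it (chromosomes 12 and 19 share a point).

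Much of the difference came from the clusters of the third dense window. In steps of 100 kb, the last 1 Mb held 6, 1, 4, 3, 5, 24, 1, 4, 10 and 5 peaks, so the step with both clusters held 24 of 63. The first 1 Mb held between 0 and 5 peaks a step. Without the stretch from 73500001 to 73700000, the last 1 Mb still had 35 peaks with a median width of 304 bp, against 20 with 300.0 bp at the start. The far end had 12 peaks of at least 600 bp and the near end 1, and outside that stretch the far end had 1 as well.

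Over the outer 500 kb the ends held 11 and 44 peaks. Further in, from 1 to 2 Mb, the sides were nearly level, with 15 peaks on the first side and 18 on the last, and from 2 to 5 Mb they held 18 and 55. Over the outer 5 Mb as a whole there were 53 and 136 peaks. The 53 peaks in the first 5 Mb were the lowest number of the 25 chromosomes, with 79 on chromosome 3 next and a median of 111.5 over the others. The 136 peaks in the last 5 Mb were nearer to the others' median of 128. Chromosome 7 also had the latest first peak, at 129770, where the next latest, on chromosome 5, was at 65366.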

How the data were processed

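The labels describe 26 libraries, of which 17 are wild-type. Per the study's methods and the submitters' processing notes, the authors trimmed reads with cutadapt 1.9.1, aligned them with Bowtie2 2.2.4 to Zv10, removed duplicate, mitochondrial and poorly mapped reads, shifted read ends for Tn5, and called peaks on short, nucleosome-free fragments with MACS2 2.1.1, using pooled replicates of each stage and naked DNA as control. They kept peaks found in every replicate and merged those of the wild-type stages. The deposited values are peak starts and ends in base pairs, with no signal or score.

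The tools were Python 3.11.15 with pandas 2.3.3, numpy 2.4.6, scipy 1.17.1 and matplotlib 3.10.9. Starts were read as counted from 0, which makes the narrowest peak 200 bp, and are printed counted from 1. If the list counts from 1 instead, printed starts should be lower by 1 and widths larger by 1 bp. Peaks were placed in bins by midpoint. A gap runs from the end of a peak to the start of the following one. Named are the peaks of the dense windows, the 10 widest peaks, the 5 longest gaps, the 5 densest and sparsest 1 Mb bins and the 10 densest windows. Clusters and stretches named beside them were chosen after their values were seen.

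The members and lists were chosen with earlier results of these data known. The functions were tested on simulated data. No Zv10 genome or annotation was used, so no sequence or gene is given. Depth is unknown, so the absence of a peak does not show that DNA was closed.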

Additional observations from a re-analysis of the deposited data

How the results depend on the processing

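Of 49 alternative values, 35 stayed within the range set for them and 14 did not. Some of the 35 could not have left it. The shortest gaps in the 3 dense windows were 263, 208 and 136 bp, so joining gaps of up to 100 bp could not change their numbers. The first dense window had no peak of exactly 200 bp, so leaving out such peaks could not change it. The tally is therefore no measure of how stable the results are. The range was a factor of 1.5 for numbers and the longest gap, and 1 SD over bins for density. For shares and the median width it was a 95% interval. Only the difference between the ends could change direction, since all other values cannot fall below 0, and it kept its direction. The alternatives for the share of wide peaks and for clusters were chosen after seeing the data. The mean density of chromosome 7 was 20.2 to 21.9 peaks per Mb and ranked 2 to 4 of 25; the range set for it was so wide that its 8 alternatives could hardly leave it. After a shift of 50 kb back, the first dense window held 11 peaks. After a shift of 50 kb on, the second held 5 and the third 2, as the window then begins behind most of the peaks. In the third, joining gaps of up to 500 and 1000 bp left 11 and 7 peaks. The far end had 83 more peaks than the near end over 5 Mb, and 24 more over 1 Mb without the dense windows, where chromosome 24 was ahead. Of all peaks, 26.5% had a neighbour at up to 2 kb, where chromosome 7 ranked 2 of 25, and 73.03% at up to 20 kb, and 39.1% at up to 5 kb after joining gaps of up to 500 bp. The share of peaks of at least 600 bp was 5.37% without both wide stretches, where chromosome 25 was ahead. Clusters of at least 8 peaks numbered 9 with gaps of at most 5 kb, 24 with gaps of at most 20 kb and 8 after joining gaps of up to 500 bp, each time the most of any chromosome. These changes follow from the construction of each alternative. Dense windows and wide stretches were taken out of chromosome 7 only, and the other chromosomes kept all their peaks. No paired analysis was possible because a list of positions has no measurement for any single library, which also meant that leaving out a replicate could not be tried. The planned annotation of the dense windows was not run.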
